A study of Mus musculus with 36 samples.

Results

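The core circadian clock genes of the heart are described here in 10 members, Arntl, Clock, Per1, Per2, Per3, Cry1, Nr1d1, Nr1d2, Dbp and Tef. A member was every row of the expression table that carried one of these symbols, without regard to its values. These rows were 25 of 45101 probe sets (sets of short probes that together read 1 transcript), for 10 of the 20701 genes with a gene identifier. The hearts came from OF1 mice, an outbred stock, with no genetic change or treatment named in the labels. The embryonic stages ran daily between embryonic days E10.5 and E19.5. Young adult hearts were 10 weeks old and old adult hearts 14 months by the labels, while the study's methods give another age for the old animals. Each of the 12 stages had 3 arrays, for a total of 36. The earliest 2 stages had arrays of mixed sex only, whereas each later stage had an array labelled female, another labelled male and another labelled mixed, so that variation between hearts of 1 stage and variation with sex cannot be told apart. By the study's methods a mixed replicate held male and female hearts together.  The time of day at which the hearts were taken is not given in the sources used here, which matters for genes that cycle over the day. Levels are log2 intensities of an array hybridized with heart RNA, and their precision is limited by the 3 arrays of a stage. A gene with several probe sets was read from the one with the highest mean over all arrays, its main probe set, and levels are compared within a probe set and not between genes.

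The mammalian clock is a loop of transcription and translation that runs in nearly every cell, heart muscle cells included. BMAL1 (the product of Arntl) and CLOCK bind DNA together at E-boxes and switch on the Per and Cry genes, whose proteins return to the nucleus and inhibit that pair. In a second loop the nuclear receptors REV-ERB alpha and beta (Nr1d1 and Nr1d2) repress Arntl from ROR elements, and DBP and TEF, transcription factors of the PAR bZIP family, carry the rhythm to output genes through D-boxes. In adult tissues Arntl and the E-box driven genes peak at opposite times of day, and clock rhythms are known to be weak or absent in early embryos.

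The DNA elements through which the clock works are shown for the members that hold them just before their start, because they tie the members to one another. RefSeq promoter windows (build GRCm38.p6) were found for 9 of the 10 members, in 14 windows, and the 250 bases before the start were searched on both strands. No entry was matched for Per2. The motifs were the E-box CACGTG, the E-prime box CACGTT, the D-box TTATGTAA or TTACGTAA, the ROR element core TAGGTCA or TGGGTCA, and the cAMP response element TGACGTCA. None of the matches overlapped another. Matches are in capitals below, given 5′ to 3′ on the strand of the gene.
Per1, chr11 plus strand, chr11:69098699-69098948: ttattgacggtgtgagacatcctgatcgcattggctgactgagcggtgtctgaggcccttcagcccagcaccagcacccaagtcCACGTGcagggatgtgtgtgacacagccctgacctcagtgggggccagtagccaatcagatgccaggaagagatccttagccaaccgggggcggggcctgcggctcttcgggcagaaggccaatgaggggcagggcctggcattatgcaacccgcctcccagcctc
Cry1, chr10 minus strand, chr10:85185055-85185304: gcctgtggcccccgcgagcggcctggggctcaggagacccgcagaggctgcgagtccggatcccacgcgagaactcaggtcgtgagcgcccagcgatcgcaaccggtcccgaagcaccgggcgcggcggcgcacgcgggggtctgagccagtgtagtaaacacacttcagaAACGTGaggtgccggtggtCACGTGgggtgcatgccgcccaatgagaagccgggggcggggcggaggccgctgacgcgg
Tef, chr15 plus strand, chr15:81802423-81802672: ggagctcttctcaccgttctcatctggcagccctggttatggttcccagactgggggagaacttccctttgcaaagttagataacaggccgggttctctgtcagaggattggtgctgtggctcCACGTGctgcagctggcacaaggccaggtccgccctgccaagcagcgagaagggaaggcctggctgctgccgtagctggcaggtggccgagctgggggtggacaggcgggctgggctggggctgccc
Nr1d1, chr11 minus strand, chr11:98775378-98775627: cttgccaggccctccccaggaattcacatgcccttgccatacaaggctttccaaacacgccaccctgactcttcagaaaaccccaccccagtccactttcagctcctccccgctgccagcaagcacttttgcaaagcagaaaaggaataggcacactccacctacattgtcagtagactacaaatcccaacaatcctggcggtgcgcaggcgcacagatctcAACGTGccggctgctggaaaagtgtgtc
Per3, chr4 minus strand, chr4:151044666-151044915: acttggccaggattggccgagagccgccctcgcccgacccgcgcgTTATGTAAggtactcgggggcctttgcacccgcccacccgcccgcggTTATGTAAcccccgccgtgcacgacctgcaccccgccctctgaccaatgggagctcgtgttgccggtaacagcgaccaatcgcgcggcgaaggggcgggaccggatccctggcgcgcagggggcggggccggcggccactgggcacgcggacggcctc
The Per1 window held an E-box that began 166 bases before the start. Cry1 held an E-box at 60 and an E-prime box, read on the other strand as AACGTG, at 79. Tef held an E-box in each of its 2 windows, at 127 bases before the upstream start, which is shown, and at 138 before the downstream start. In Nr1d1 an E-prime box lay 28 bases before the start, and the Per3 window carried the D-box TTATGTAA at both 205 and 158.

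An E-box was thus present in 4 of 14 windows of the members and in 6.02% of all 32851 windows of the reference. The E-prime box was present in 2 of 14 against 3.85%, and the D-box in 1 of 14 against 0.931%. The ROR core, held by 5.38% of all windows, and the cAMP response element, held by 1.55%, were in 0 of the 14, which says only that these letters were not in these windows. The second Per1 window and the windows of Arntl, Clock, Dbp and Nr1d2 held none of the motifs. These matches are descriptions of sequence and not of binding.

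The heart label was borne out by cardiomyocyte markers, whose mean over 5 measured genes (Tnnt2, Actn2, Ttn, Ryr2 and Myl2) lay between 11.2 and 12.0 on every array. The mean of the 6 liver markers stayed between 3.26 and 3.87 on every array, although the labels' extraction text names liver. Hybridization controls, which are spiked in and do not come from the heart, moved with stage. Their level was 9.68 to 10.3 at E10.5, 11.0 to 11.4 at E19.5, 12.0 to 12.4 in young adult and 11.2 to 11.6 in old adult hearts. The 3 E19.5 arrays differed in the clock genes, with the mixed array apart from the female and male ones, and values without it are given where a call or its size changed.

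**Figure D1:**
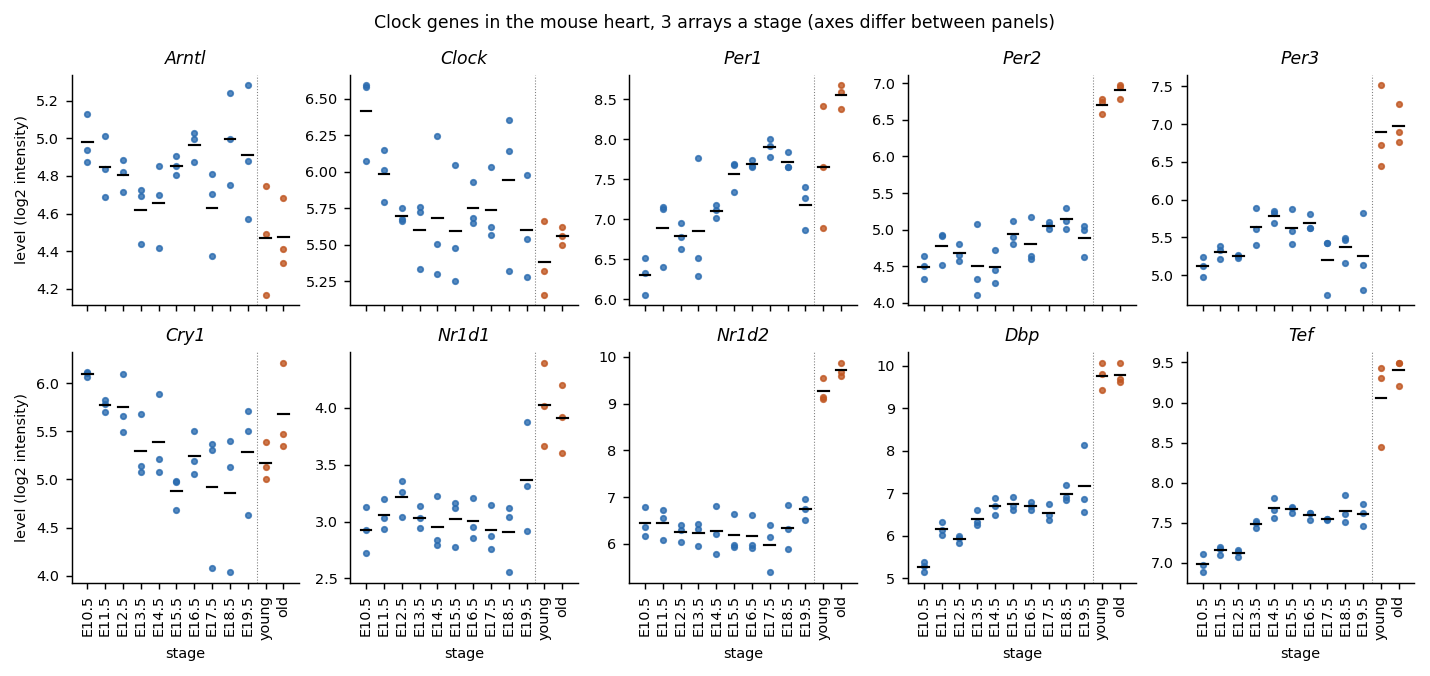
Level of the 10 clock genes (log2 intensity, main probe set) on every array at the 12 stages, with embryonic arrays in blue, adult arrays in orange and black bars for the stage means. Per2, Per3, Nr1d2, Dbp and Tef lie higher on all 6 adult arrays than on all 30 embryonic ones, while Arntl, Clock and Cry1 are not.

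Comparing young adult hearts with E10.5 hearts asked which parts of the clock differ between the mature and the early embryonic heart. Genes of the negative limb, the REV-ERB genes and the PAR bZIP genes were higher in the adult, led by Dbp (22.6-fold), Nr1d2 (7.07-fold), Per2 (4.66-fold) and Tef (4.19-fold). The activators Arntl and Clock and the repressor Cry1 were lower, by 1.42-fold, 2.05-fold and 1.90-fold. However, the hybridization control level as a covariate, which did not overlap between these stages, turned the sign for Clock and Cry1. Median centring of the arrays did so for Arntl, while it moved the median of all genes from 0.21 to 0.74. Arntl thus stayed below that median in either setting. At an adjusted p under 0.05 in limma, 7 members rose, against 38.6% of all genes, and 3 fell, against 28.5% of all genes. The median difference of the members was 1.57 on the log2 scale and that of all genes 0.21. With so many genes called, the number of members called says less than the size of their differences. The arrays of the 2 stages did not overlap for 10 of 10 members, nor for 69.3% of all genes. On the main probe sets, the 6 adult arrays all lay above the 30 embryonic ones for Per2, Per3, Nr1d2, Dbp and Tef, and for 5.35% of all genes. Other probe sets of Per2, Per3 and Tef did overlap. Stage means lay below 5 for Arntl and Nr1d1 at every stage and for Per2 in the embryo except at E17.5 (5.05) and E18.5 (5.14). The folds of these genes are those of the measured intensities only. As these were whole hearts, fewer cells of a type and less RNA per cell cannot be told apart.

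Against E19.5, the last embryonic day, 6 members rose in the young adult heart (14.7% of all genes did) and 1 fell (17.0%). Those that rose were Dbp (6.0-fold), Nr1d2 (5.72-fold), Per2 (3.53-fold), Per3 (3.13-fold), Tef (2.74-fold) and Nr1d1 (1.58-fold), and the 1 that fell was Arntl. The median difference of the members was 1.06, against 0.05 for all genes. Between E10.5 and E19.5, 3 members rose (26.2% of all genes) and 2 fell (23.6%), with a member median of 0.35. These counts were less settled, with 6 rising when all probe sets of a gene were averaged, 7 after median centring, and 0 falling without the E19.5 mixed array. The percentages of all genes are for the values as deposited, and centring moved the median of all genes from 0.16 to 0.50. Dbp, Per1 and Tef rose within embryonic life and Clock and Cry1 fell, the sign of the last pair turning with the covariate. These comparisons share arrays, so their values for a gene are set side by side and are not independent.

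**Figure D2:**
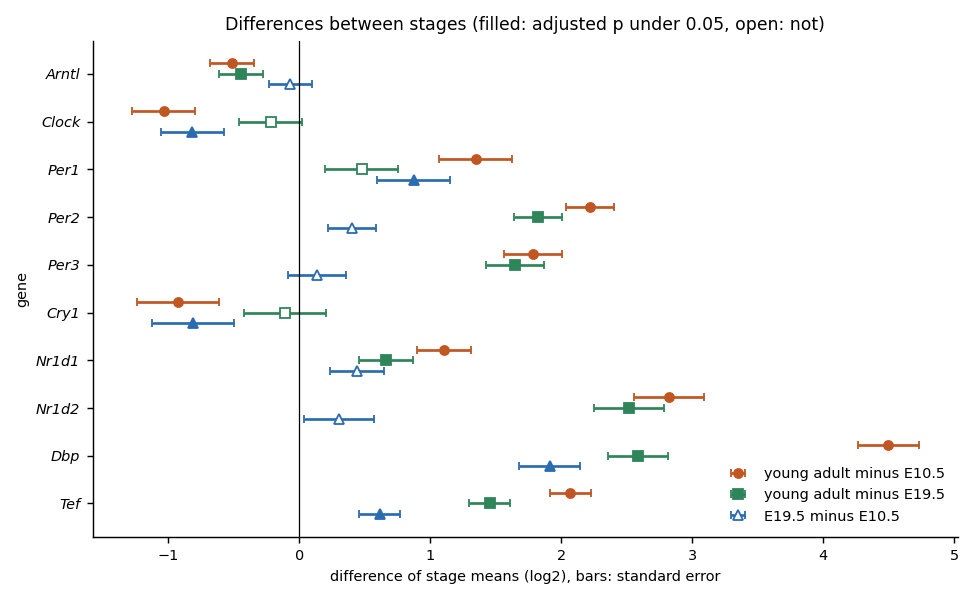
Difference of stage means (log2) with its standard error for each clock gene, for young adult minus E10.5 (circles), young adult minus E19.5 (squares) and E19.5 minus E10.5 (triangles), filled where the adjusted p was under 0.05. On these main probe sets, the difference for Per2, Per3 and Nr1d2 passes the test between E19.5 and young adult and not between E10.5 and E19.5. Dbp passes in both intervals. Some other probe sets of Per2 and Per3 do pass between E10.5 and E19.5.

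Of the activators, Arntl encodes BMAL1, the partner without which the core loop stops. Its main probe set was dim, with no stage mean above 5. The E10.5 arrays measured 4.87, 4.94 and 5.13, the E19.5 arrays 5.28 (female), 4.88 (male) and 4.57 (mixed), and the young adult arrays 4.17 (female), 4.49 (male) and 4.75 (mixed). The young adult arrays lay below all E10.5 arrays, and overlapped those of E19.5. The fall from E10.5 was by 0.51 (SE 0.17, adjusted p = 0.00952) and that from E19.5 by 0.44 (SE 0.17, adjusted p = 0.0447). The former call was lost without the young adult female array (adjusted p = 0.0824). The latter was lost without any 1 of 4 of the 6 arrays compared, namely the E19.5 female or male or the young adult male or female array, with adjusted p up to 0.318, while without the E19.5 mixed array the difference was -0.61 (adjusted p = 0.00941). In addition, after median centring of the arrays the difference from E10.5 was 0.02, where the median of all genes was 0.74 and not 0.21. A second Arntl probe set, with a mean of 4.04 at E10.5, rose by 1.12 to E19.5 (adjusted p = 8.33e-05) and fell by 1.41 from there to the young adult (adjusted p = 4.33e-06).

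Clock encodes the other activator. Its main probe set measured 6.07, 6.58 and 6.59 at E10.5 and 5.16 to 5.66 in young adult hearts, without overlap. It fell by 1.04 (SE 0.24, adjusted p = 0.000472) between these stages. Most of the fall lay within embryonic life, with a difference of -0.82 between E10.5 and E19.5 (SE 0.24, adjusted p = 0.00656), and the difference of -0.22 between E19.5 and young adult did not pass the test (adjusted p = 0.542). Without the E19.5 mixed array the embryonic fall was -0.66 with an adjusted p of 0.0553. The 4 Clock probe sets did not move together. Relative to E19.5, the adult level fell by 1.90 (adjusted p = 1.84e-10) on one of the others and by 0.79 (adjusted p = 0.000131) on another, and within embryonic life the latter rose by 0.49 (adjusted p = 0.00852). With the hybridization control level as covariate, the main probe set difference between young adult and E10.5 turned to 0.66 (adjusted p = 0.134). Its direction thus depended on that covariate. The control levels of these stages did not overlap, so covariate and stage can hardly be separated in this comparison.

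Among the repressors, Per2 was higher in the adult. Its main probe set measured 4.32, 4.50 and 4.64 at E10.5, and 4.63 (female), 4.99 (male) and 5.05 (mixed) at E19.5. Young adult hearts gave 6.59 (male), 6.75 (female) and 6.78 (mixed). On this probe set all adult arrays lay above all embryonic ones, whose highest value was 5.30. The other Per2 probe sets did overlap, one through a young adult mixed array at 5.37 and the other through old adult arrays at 5.04 to 5.27, against embryonic maxima of 5.44 and 5.32. The young adult level exceeded E10.5 by 2.22 (SE 0.18, adjusted p = 8.44e-12) and E19.5 by 1.82 (SE 0.18, adjusted p = 2.97e-09), and all 3 Per2 probe sets rose in both comparisons. Between E10.5 and E19.5 the main probe set differed by 0.40 (adjusted p = 0.0730), while another one rose by 1.33 (adjusted p = 1.94e-05).

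Per3, a period gene that is not essential for the loop, had a similar course. E10.5 arrays measured 4.98, 5.12 and 5.25, E19.5 arrays 4.80 (male), 5.13 (female) and 5.83 (mixed), and young adult arrays 6.45 (mixed), 6.73 (male) and 7.52 (female). On this probe set no embryonic array reached the adult range, the highest being 5.89. Most other Per3 probe sets did overlap, as through the E19.5 mixed array at 4.61 and 5.46, against old adult male arrays at 3.83 and 5.16. Another stayed apart, with embryonic arrays up to 4.55 and adult arrays from 5.46. The young adult level was higher by 1.78 than at E10.5 (SE 0.22, adjusted p = 5.11e-08) and by 1.65 than at E19.5 (SE 0.22, adjusted p = 7.44e-07), and by 1.93 without the E19.5 mixed array. Of the 6 Per3 probe sets, all rose against E10.5 and 5 against E19.5. Between E10.5 and E19.5 the main probe set differed by 0.14 (adjusted p = 0.624). In that interval 3 of the 6 Per3 probe sets rose, the most by 1.03 (adjusted p = 0.000136).

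Per1, which also answers directly to glucocorticoids and cAMP, rose earlier. From 6.06, 6.33 and 6.52 at E10.5 its mean climbed to 7.90 at E17.5 (7.78 to 8.0) and stood at 7.18 at E19.5 (6.87 to 7.40). Young adult arrays were widely scattered, at 6.89 (male), 7.65 (mixed) and 8.42 (female). The rise over E10.5 was 1.35 (SE 0.28, adjusted p = 0.000129). Against E19.5 the difference of 0.48 did not pass the test (adjusted p = 0.215), and the arrays overlapped. Of the 10 embryonic stages 4, E10.5 to E13.5, were called as lower than young adult.

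Cry1, a cryptochrome and the strongest repressor of the loop, moved the other way. Its E10.5 arrays lay close together at 6.07, 6.10 and 6.12. By E18.5 they spread from 4.04 to 5.40, at E19.5 they measured 5.71 (female), 5.50 (male) and 4.63 (mixed), and in young adult hearts 5.00 (female), 5.12 (mixed) and 5.39 (male). The fall from E10.5 was by 0.92 (SE 0.31, adjusted p = 0.0119) to the young adult and by 0.81 (SE 0.31, adjusted p = 0.0344) to E19.5. The second of these calls was lost without any 1 of 4 of the 6 arrays, namely each E10.5 array and the E19.5 mixed array, with adjusted p up to 0.261. As for Clock, the covariate turned the young adult difference from E10.5 to 0.70 (adjusted p = 0.375).

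The REV-ERB genes, repressors of Arntl and of metabolic genes, differed in signal. Nr1d2, for REV-ERB beta, measured 6.16, 6.37 and 6.79 at E10.5. At E19.5 it measured 6.52 (male), 6.75 (female) and 6.97 (mixed), and in young adult hearts 9.10 (mixed), 9.13 (male) and 9.55 (female). Over the whole of embryonic life its 30 arrays had a median of 6.33 and did not exceed 6.97, and the 6 adult arrays began at 9.10. The young adult level was higher by 2.82 than at E10.5 (SE 0.27, adjusted p = 1.85e-10) and by 2.52 than at E19.5 (SE 0.27, adjusted p = 8.72e-09). Within embryonic life neither the E19.5 difference of 0.30 (adjusted p = 0.350) nor the test for any difference among the 10 stages (adjusted p = 0.434) passed.

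Nr1d1, for REV-ERB alpha, was the dimmest member, with no stage mean above 4.03, below the level of 5 used here as the limit of expression. Its arrays measured 2.72, 2.93 and 3.13 at E10.5, and 2.91 (male), 3.32 (female) and 3.87 (mixed) at E19.5. Young adult hearts gave 3.67 (male), 4.02 (mixed) and 4.40 (female). The rise over E10.5 was 1.10 (SE 0.21, adjusted p = 3.30e-05), without overlap. Over E19.5 it was 0.66 (SE 0.21, adjusted p = 0.0142), with overlap through the E19.5 mixed array, and 0.91 (adjusted p = 0.00128) without that array. The call was lost without the E19.5 male array or the young adult female array, with adjusted p up to 0.143.

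Dbp, the output factor that follows the clock with the widest daily swing in adult tissues, had the largest differences of the 10 members. It measured 5.15, 5.28 and 5.38 at E10.5. At E19.5 the female and male arrays read 6.86 and 6.55, and the mixed array 8.13, the highest of all 30 embryonic arrays, the next being 7.21. Young adult hearts gave 9.44 (male), 9.80 (mixed) and 10.1 (female). The groups did not overlap in either step. Dbp rose by 1.91 from E10.5 to E19.5 (SE 0.23, adjusted p = 8.35e-08), or by 1.44 without the mixed array, and by 2.58 from there to the young adult (SE 0.23, adjusted p = 2.72e-10), or by 3.06 without it. Altogether it stood 4.50 above E10.5 (SE 0.23, adjusted p = 1.12e-16), and its second probe set stood 3.75 above (adjusted p = 7.19e-15). That second probe set rose by only 0.58 between E10.5 and E19.5 (adjusted p = 0.0387), with overlap, its female and male E19.5 arrays at 3.42 and 3.06 against 2.98 to 3.25 at E10.5.

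Tef, the other PAR bZIP member, took part in both steps too. Its arrays measured 6.88, 6.98 and 7.11 at E10.5, 7.46 (male), 7.62 (female) and 7.73 (mixed) at E19.5, and 8.44 (mixed), 9.30 (male) and 9.43 (female) in young adult hearts. The groups were apart at each step, the young adult mixed array being the low one of its stage. Tef rose by 0.61 from E10.5 to E19.5 (SE 0.16, adjusted p = 0.00189) and by 1.45 from E19.5 to young adult (SE 0.16, adjusted p = 9.40e-09).

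**Figure D3:**
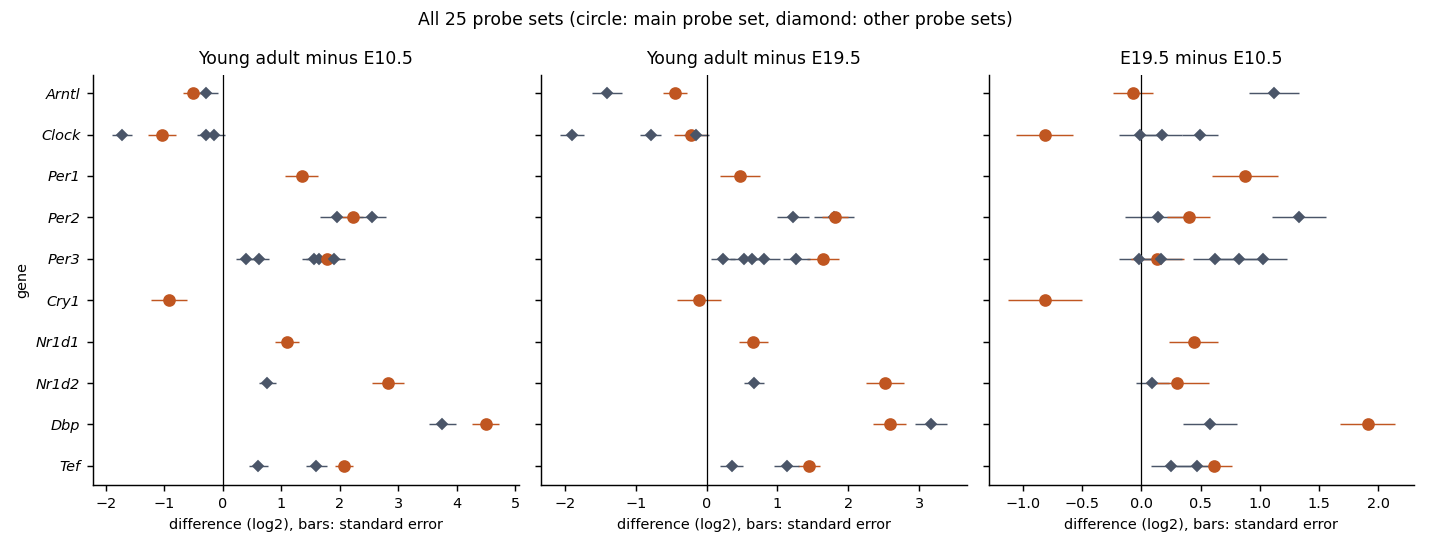
Difference of stage means (log2, with standard error) for all 25 probe sets of the 10 clock genes in 3 comparisons, the main probe set of a gene as an orange circle and the others as grey diamonds. All probe sets of Per2, Per3, Nr1d2, Dbp and Tef lie to the right of 0 in both comparisons with the young adult, whereas those of Arntl and Clock differ in direction between E10.5 and E19.5.

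Taking every probe set in turn, 18 of 25 rose and 4 fell between E10.5 and young adult, where 35.9% and 27.1% of all probe sets did. Between E19.5 and young adult 15 rose and 4 fell, where 13.6% and 15.5% of all probe sets did. Between E10.5 and E19.5, 11 rose, 2 fell and 12 did not pass the test, where 23.7% of all probe sets rose and 21.8% fell. Against E19.5, 3 of 3 Per2, 5 of 6 Per3, 2 of 2 Dbp, 2 of 3 Tef and 2 of 2 Nr1d2 probe sets rose.

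To ask which members set the young adult heart apart from every embryonic stage, each of the 10 stages was compared with it. Per2, Per3, Dbp, Tef, Nr1d1 and Nr1d2 were higher in young adult at all 10, so 6 of 10 members were called (7.86% of all genes were), and 0 were lower at all 10 (11.7% of all genes were). The smallest of the 10 differences was 2.58 for Dbp, 2.52 for Nr1d2, 1.56 for Per2, 1.38 for Tef, 1.11 for Per3 and 0.66 for Nr1d1. Arntl was lower at 4 stages, Clock at 2 and Cry1 at 1. Under the limits the study set for a differentially expressed gene (adjusted p under 1e-05, a log2 difference above 2 and a mean above 5 in a stage), 4 members were higher in young adult against at least 1 stage (3.50% of all genes) and 0 were lower (6.54%). Dbp and Nr1d2 passed at all 10 stages, Per2 at E10.5 and E12.5 to E14.5, and Tef at E10.5.

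Within embryonic life, a test for any difference among the 10 stages called 5 members, Dbp (adjusted p = 1.44e-06), Per1 (0.000177), Tef (0.000710), Cry1 (0.0117) and Per2 (0.0155), where 50.2% of all genes were called. The stage means of Dbp spanned 1.91, between 5.27 (E10.5) and 7.18 (E19.5), those of Per1 1.6 and those of Cry1 1.24. On its main probe set Arntl had the narrowest span of the 10, at 0.38, and gave an adjusted p of 0.263. Its second probe set, however, rose by 1.12 between E10.5 and E19.5 (adjusted p = 8.33e-05). From 1 day to the next little could be resolved with 3 arrays. Over the 9 daily steps only 1 member at 1 step was called, the rise of Dbp by 0.89 between E10.5 and E11.5 (SE 0.23, adjusted p = 0.0325), where 0.657% of all pairs of gene and step were called, and it was not called after quantile renormalization.

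The old adult heart was compared with the young one to ask whether the clock genes change with age. Only Per1 was called, 1 of 10 higher (4.46% of all genes were) and 0 lower (3.13%). Old adult arrays measured 8.38 (female), 8.59 (male) and 8.67 (mixed) against 6.89, 7.65 and 8.42 in young adults, a difference of 0.90 (SE 0.28, adjusted p = 0.0464) with overlap through the young adult female array. The call was lost when any 1 of 5 of the 6 adult arrays was left out, with adjusted p up to 0.305, and after median centring, quantile renormalization and a fit to the 6 adult arrays with the sex label as a replicate block (adjusted p = 0.259). Without the young adult female array it held at 1.28 (adjusted p = 0.00365), and Tef was then called as well.

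For the other members, old and young adult differed by -0.12 (Nr1d1) to 0.50 (Cry1). The old adult arrays of Nr1d2 (9.59 to 9.88) lay above the young adult ones (9.10 to 9.55) and those of Per2 (6.79 to 6.98) above 6.59 to 6.78, but neither passed the test, with adjusted p of 0.318 and 0.547. For Dbp the means were 9.77 in young and 9.79 in old adult hearts. Other probe sets of 2 members passed in the same comparison: one of Clock rose by 0.66 (adjusted p = 0.0143) and one of Per2 fell by 0.85 (adjusted p = 0.0201), the latter against the direction of the main Per2 probe set.

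Between male and female arrays, paired by stage from E13.5 on in 9 pairs, 0 of 10 members were called in limma (0.0435% of all genes were), and 3 had an unadjusted p under 0.05. These were Clock, with a difference of -0.22 for male minus female (SE 0.08, adjusted p = 0.561) with the male array higher in 2 of 9 pairs, Nr1d2, with -0.21 (adjusted p = 0.581) and again 2 of 9, and Per2, with 0.19 (adjusted p = 0.613) and 7 of 9. The share of all genes at the unadjusted limit is not given here, so none of the 3 is read as a sex difference.

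**Figure D4:**
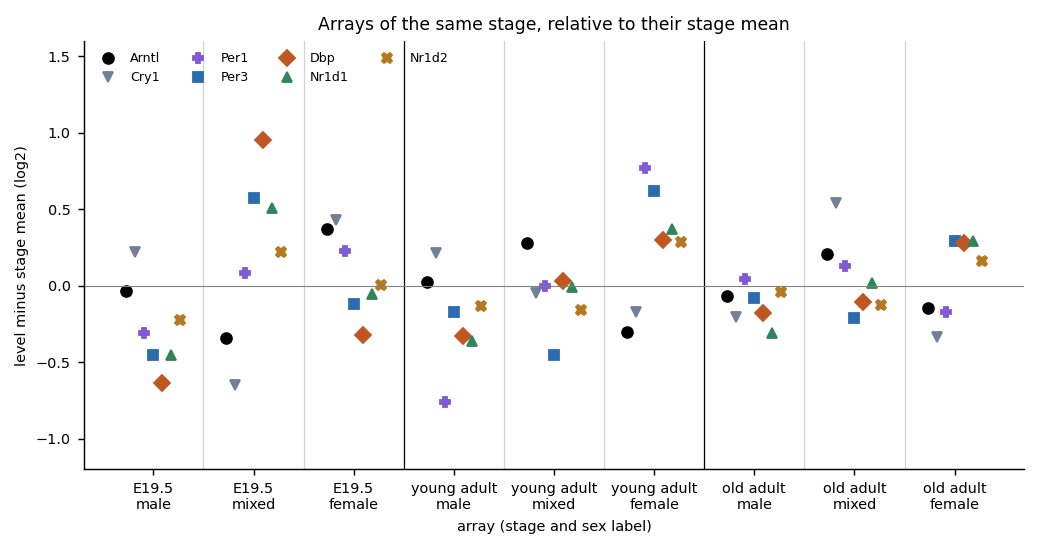
Level of 7 clock genes on each E19.5, young adult and old adult array minus the mean of its stage (log2), by stage and sex label. On the main probe sets shown, the E19.5 mixed array and both adult female arrays have Dbp, Per3, Nr1d1 and Nr1d2 above and Arntl below the stage mean.

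Because the hour of collection is unknown, the members were also compared array by array within a stage. On the main probe sets, the female array of both adult stages had the lowest Arntl (4.17 of 4.17 to 4.75 in young and 4.33 of 4.33 to 4.68 in old adults) and the highest Dbp, Per3, Nr1d1 and Nr1d2. At E19.5 the mixed array took that place, with the lowest Arntl (4.57) and Cry1 (4.63) and the highest of these 4 genes. Other members did not follow, the old adult female array having the lowest Per1 (8.38) and Per2 (6.79), and on the second Arntl probe set the lowest old adult array was the male one (3.34, female 3.87). Nor did every stage follow, as the E17.5 mixed array had the lowest Arntl (4.38) of its stage and also the lowest Per3 (4.74), Dbp (6.38) and Nr1d2 (5.40). Each of these is 1 array, so sex, animal, hour and handling cannot be told apart.

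Over all 36 arrays, deviations of Arntl from its stage mean were set against those of the 9 other members, in 9 relations tested by permutation within stages. The strongest were with Dbp (Pearson r = -0.446, Spearman rho = -0.336, permutation p = 0.165 and 0.146), Per3 (r = -0.411, rho = -0.321, p = 0.149 and 0.154) and Cry1 (r = 0.331, rho = 0.292, p = 0.182 and 0.187), each with an adjusted p of 0.538 for r and 0.561 for rho in the same permutation test. None of the 9 passed. Without the 2 arrays farthest from the median of Arntl, r was -0.230 with Dbp, -0.308 with Per3 and 0.182 with Cry1. Within the 30 embryonic arrays r was -0.437 with Dbp, -0.188 with Per3 and 0.0445 with Nr1d2, whose r over all arrays was -0.0669. Within the 6 adult arrays, given as values only, it was -0.505 with Dbp, -0.941 with Per3 and -0.903 with Nr1d2. With the mean of all probe sets of a gene, however, the adult value turned to 0.151 with Per3 and was -0.227 with Nr1d2.

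The rest of the clock was read from a list of 18 further clock genes. Between E10.5 and young adult 8 of 18 rose and 6 fell, with a median of 0.39, beside 38.6% and 28.5% of all genes. Between E19.5 and young adult 2 rose and 5 fell (14.7% and 17.0% of all genes), and between E10.5 and E19.5 6 rose and 5 fell (26.2% and 23.6%). Npas2, which can stand in for Clock as the partner of BMAL1, rose through embryonic life and was low again in the adult. Its arrays measured 2.57, 2.67 and 3.09 at E10.5, its means reached 5.13 at E15.5 and 6.38 at E18.5 (6.19 to 6.65), and young adult arrays were back at 2.82 to 3.39. It rose by 2.78 from E10.5 to E19.5 (SE 0.18, adjusted p = 1.43e-13), from a level below 5, and fell by 2.36 from E19.5 to young adult (SE 0.18, adjusted p = 7.08e-12).

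Hlf, the PAR bZIP relative of Dbp and Tef, rose from 3.99 at E10.5 to 6.79 at E15.5 and 6.56 at E19.5, and to 7.45 in young adult hearts, a further 0.88 (adjusted p = 0.000418). Nfil3, which binds the same D-boxes as a repressor, was lower in young adult than at E10.5, by 1.33 (adjusted p = 8.88e-06), with a mean of 3.74 against 5.07. The activators Rora and Rorb rose within embryonic life, by 0.80 and 0.83 (adjusted p = 0.00127 and 0.00570), and neither passed between E19.5 and young adult. Rorb was below 5 throughout, with no stage mean above 3.78, and Rora was below 5 at E10.5 (4.62). The kinases that mark PER proteins for decay, Csnk1d and Csnk1e, were lower in young adult than at E19.5, with differences of -0.88 and -0.50 (adjusted p = 1.30e-05 and 0.0136), as was Fbxw11 of the ubiquitin ligase that follows them (-0.57, adjusted p = 3.17e-05).

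The second cryptochrome Cry2 was higher in young adult than at E19.5 by 0.54 without passing the test (adjusted p = 0.0517). Arntl2 (0.83), Fbxl21 (0.43) and Npas2 (0.42) passed as higher in young adult than at E10.5, all 3 with means below 5 at both stages, and Btrc (-1.09), Timeless (-0.85) and Csnk1d (-0.74) as lower. Between these stages Cry2, Ciart and Bhlhe41 did not pass. With age, 3 of the 18 rose (4.46% of all genes did) and 0 fell (3.13%). Bhlhe40, a repressor that competes for E-boxes, rose by 1.43 (SE 0.29, adjusted p = 0.00295), from 6.89 to 7.13 in young to 7.47 to 9.01 in old adults. Timeless rose by 0.55 (adjusted p = 0.0377), with overlapping arrays, and Ciart by 0.54 (adjusted p = 0.0450).

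**Figure D5:**
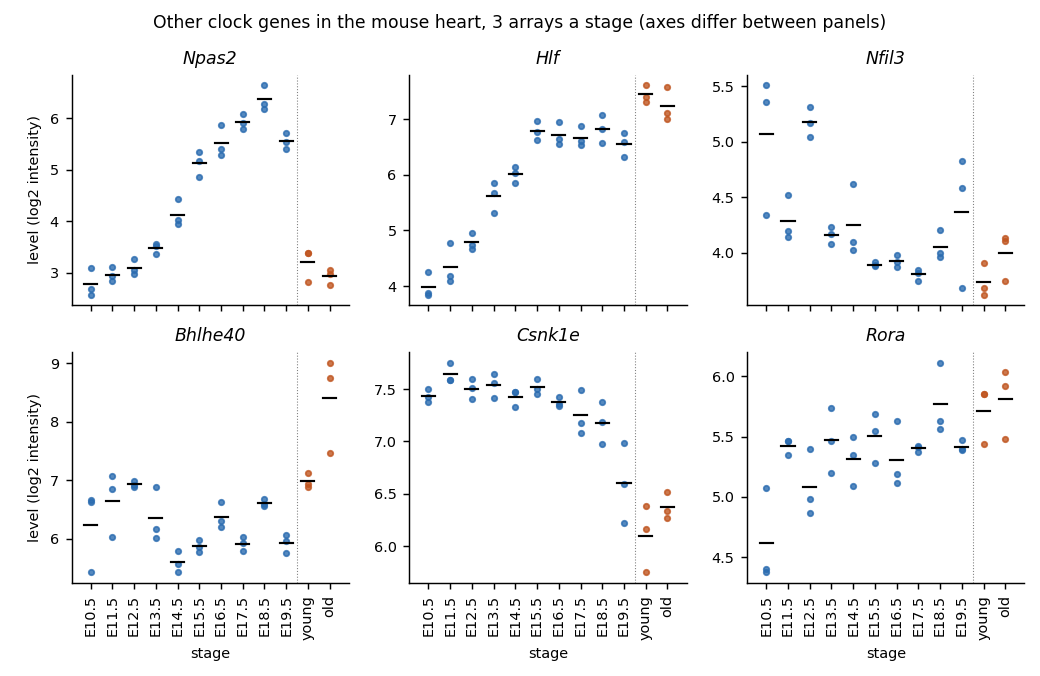
Level of 6 other clock genes (log2 intensity) on every array at the 12 stages, embryonic arrays in blue, adult arrays in orange, bars for stage means. Npas2 climbs to 6.38 at E18.5 and is near its E10.5 level in the adult, Hlf rises until E15.5 and again in the adult, and Bhlhe40 is highest in old adult hearts.

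Of 10 genes known to follow the clock in adult heart, 6 rose and 1 fell between E10.5 and young adult (38.6% and 28.5% of all genes), and 4 rose and 2 fell between E19.5 and young adult (14.7% and 17.0%). Kcnip2, a subunit of the transient outward potassium channel under clock control, rose over E10.5, where its mean of 3.32 was below 5 (adjusted p = 5.49e-19), but had already reached 7.06 at E19.5 against 7.45 in the young adult. Tspan4 (1.77), Nampt (1.59), which makes the NAD precursor, and Klf15 (1.05) rose between E19.5 and young adult, whereas Pdk4 fell by 1.59 (adjusted p = 0.000373) and Usp2 by 0.44 (adjusted p = 0.0458). The cell cycle kinase gene Wee1, an E-box target, fell by 0.65 from E10.5 (adjusted p = 0.000737).

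Of 7 glucocorticoid-responsive genes, which include Per1, 5 rose between E10.5 and young adult, beside 38.6% of all genes. Klf9, itself a rhythmic gene, rose from 6.62 through 9.90 at E19.5 to 11.2 (4.58 over E10.5, adjusted p = 4.44e-15), and Zbtb16 (3.00) and Sgk1 (2.66) rose as well. Of 9 immediate early genes, whose levels answer within minutes to handling, 6 fell (28.5% of all genes did) and 1, Dusp1, rose between E10.5 and young adult. In old against young adult hearts, where 4.46% of all genes rose, 1 of them rose, Nr4a1, by 2.25 (adjusted p = 0.00453). Of the glucocorticoid list Per1 and Cdkn1a did (0.95 for Cdkn1a, adjusted p = 0.0433). The mean of the immediate early list was 6.41 to 6.98 on the young and 7.08 to 8.27 on the old adult arrays. Its part in the Per1 difference was not tested.

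Markers of other cells moved with the same comparisons, in which 38.6% of all genes rose and 28.5% fell against E10.5 and 14.7% rose and 17.0% fell against E19.5. Of 5 proliferation genes measured, 5 fell between E10.5 and young adult, and their mean level went from 7.81 to 8.07 at E10.5 to 4.54 to 4.88. Of 5 adipocyte markers measured 5 rose (Cfd by 4.69), their mean level going from 2.61 to 2.75 (E10.5) through 2.92 to 3.20 (E19.5) and reaching 4.10 to 5.70 in young adult hearts. The lymphocyte and antigen-presenting list rose in 5 of 5, from 3.45 to 3.56 to 4.89 to 5.08, and the erythroid list fell in 5 of 6. Between E19.5 and young adult 4 of 5 adipocyte and 2 of 5 lymphocyte and antigen-presenting markers rose and 3 of 5 proliferation genes fell. No marker was at 0. The part of cell composition in the rise of Dbp, Nr1d2, Per2, Per3, Tef and Nr1d1 was not tested.

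The genes most like 3 of the members over the 12 stage means were sought among genes with a stage mean above 5, as a description without a test. Dbp was matched most closely by Erg (r = 0.994), H2-Aa (0.993, one of the antigen-presenting markers above), Ezh1 (0.990), Rnase4 (0.988) and Slc38a3 (0.988), over 12 stages and 11316 genes. Per2 was matched by Art1 (0.987), Cyp4b1 (0.986), Arhgdib (0.984), Nrd1 (0.984) and C1qtnf9 (0.983). For Arntl the likeness was lower, with Vapa (0.866), Popdc2 (0.863), Sik2 (0.859), Stk39 (0.857) and Dohh (0.849). These stage means share the arrays of every stage.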

How the data were processed

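RNA of 36 mouse heart samples was measured on Affymetrix whole-genome mouse arrays. The authors made the deposited values, log2 intensities, by robust multi-array average (RMA: background correction, quantile normalization across arrays, summary of each probe set). The submitters' processing notes name Affymetrix Expression Console and Partek 6.6. Because quantile normalization assumes like distributions, a shift shared by most genes is not kept. The values were used as deposited. The 12 stage means were fitted in R 4.3.3 with limma 3.58.1 on all 36 arrays and 45101 probe sets, with Benjamini-Hochberg adjustment within each comparison, and a gene was called at an adjusted p under 0.05 on its main probe set. Male and female arrays were compared with stage as a block, and relations with Arntl were tested by two-sided permutation within stages (100000 resamples, 9 relations). Genes were named by symbol, and 1 of 96 listed genes was matched by gene ID; 2 (Myh6 and Plin1) were not found. Percentages of all genes are over 20701 main probe sets. All 10 members are named, as are the 18 other clock genes except 2 that are counted but not reported here, and, of other lists, up to 6 called genes. The members and lists were chosen with earlier results of these data known. In simulated young adult minus E19.5 data, 81 of 100 probe sets changed by 1 and 99 of 100 changed by 2 (log2) were recovered. There were 13 false calls among the unchanged ones of the 45101 probe sets. The simulated noise was independent between probe sets and few of them changed, so these rates need not hold for the real arrays. Sex labels did not pair the arrays: the mean correlation of deviations was 0.0249 for arrays of the same label and -0.0117 for others. The 3 arrays of a stage were biological replicates by the study's methods, with nothing said of litters. A mixed array held hearts of both sexes and so not a single heart. The p-values of the stage comparisons measure only the spread between arrays of the same stage. That spread was pooled for each probe set over the 12 stages, so a gene has the same standard error in every comparison. For Dbp it was 0.23 throughout, although its standard deviation was 0.84 at E19.5 and 0.079 at E12.5.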

Additional observations from a re-analysis of the deposited data

How the results depend on the processing

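Dbp, Nr1d2, Per2, Per3 and Tef were higher in young adult than at E10.5 and E19.5 without any 1 of the 6 arrays of each comparison. Members called lower against E10.5 numbered 0 with the hybridization control level as covariate and 1 after median centring; against E19.5 0 with these, a filter before the model, trend and robust moderation, quantile renormalization or the sex label as replicate block, 2 with the mean of all probe sets, and 0 to 1 leaving out an array. Between E10.5 and E19.5, 6 rose with the mean of probe sets and 7 after centring, and 0 fell with the covariate, 1 with the mean of probe sets, centring or quantiles, and 0 to 2 leaving out an array. With age 0 rose after centring, quantiles or a replicate block on 6 arrays, and 0 to 2 leaving out an array. The covariate left 3 members differing among embryonic stages, quantiles left 0 daily steps, and the mean of probe sets put 1 member lower than at every stage of the embryo. The sex label as replicate block ended the call of Arntl against E19.5 (adjusted p = 0.0521) and called Per2 between E10.5 and E19.5 (adjusted p = 0.0461), though the labels did not pair the arrays. With the covariate, Clock differences were 0.66 (young adult minus E10.5), 0.54 (minus E19.5), 0.12 (E19.5 minus E10.5) and -0.42 (old minus young), those of Cry1 0.70, 0.61, 0.087 and -0.070, and old minus young was -0.031 for Arntl, -0.20 for Nr1d2 and -0.10 for Per3. Centring turned Arntl to 0.016 (young adult minus E10.5), 0.27 (E19.5 minus E10.5) and -0.14 (old minus young), and Cry1 to 0.074 (young adult minus E19.5; quantiles 0.054). Old minus young was -0.12 for Dbp and -0.066 for Per3 after centring, -0.11 and -0.091 after quantiles, and -0.055 for Tef with the mean of probe sets, which gave 0.53 for Arntl from E10.5 to E19.5. Leaving out an array gave -0.25 to 0.10 for Arntl and -0.15 to 0.36 for Per3 from E10.5 to E19.5, -0.44 to 0.11 for Cry1 in young adult minus E19.5, and for old minus young -0.14 to 0.15 (Arntl), -0.14 to 0.17 (Dbp), -0.30 to 0.065 (Nr1d1) and -0.15 to 0.39 (Per3). Correlations with Arntl became -0.246 (Clock), -0.181 (Per1), -0.0410 (Per2) and 0.174 (Tef) with the mean of probe sets, and -0.199 (Clock) after centring. Centring moved the median of all genes between E10.5 and young adult from 0.21 to 0.74, and between E10.5 and E19.5 from 0.16 to 0.50. Shares of all genes called under these settings are not given here, so the counts of members have none beside them. Arntl and Nr1d1 did not pass the filter before the model and had no value there. The cause of these changes was not tested.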
